A study of Mus musculus with 36 samples.

Results

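The genes described here are those whose mRNA followed Myh7 from heart to heart among mice with a constricted aorta, once the time of day was taken out. For each of 12393 genes, the mean of its 3 arrays at each time was subtracted from its values in the 18 TAC arrays, and what remained was correlated with Myh7 treated the same way. Of the 12392 genes other than Myh7, 77 (0.621%) had a Pearson correlation of 0.8 or above and are called rising genes. Another 62 (0.5%) had a correlation of -0.8 or below and are called falling genes, which gives 139 members in all. The same calculation in the 18 SHAM arrays, which served as the control, gave 3 genes (0.0242%) at or above 0.8 and 0 (0%) at or below -0.8. The members were thus chosen by their TAC correlations, which are given as a description without a test.

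The series holds 36 Affymetrix arrays of RNA from the left ventricle of mice, 3 arrays from different mice in each of 12 groups. TAC mice had transverse aortic constriction, in which the arch of the aorta is tied narrower so that the ventricle pumps against a higher pressure, and SHAM mice had a mock operation. Mice of both kinds lived for 8 weeks after surgery, and hearts were then collected at ZT03, ZT07, ZT11, ZT15, ZT19 and ZT23, where ZT is zeitgeber time in hours. Strain, sex, age and light schedule are not given in the labels used here. The deposited values are on a log scale, taken here as log2, and each probe set had been centred on a median of 0 within each surgery, so a value says how an array stood among the 18 of its own surgery and levels in TAC and SHAM cannot be compared.

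Myh7 encodes the slow, beta form of myosin heavy chain. It is abundant in the ventricle before birth, gives way to Myh6, the fast alpha form, in the adult mouse, and returns when the heart is overloaded, as part of a set often called the fetal gene programme together with the natriuretic peptides Nppa and Nppb and skeletal actin Acta1. Pressure overload is also known to lead to deposition of collagen and other matrix by fibroblasts and to lower expression of the genes with which the adult heart burns fatty acids.

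Myh7 itself differed widely among TAC mice killed at the same time of day. At ZT03 the 3 TAC hearts were at -1.70, -0.54 and 0.32 (replicates 1, 2 and 3, log2 values relative to the TAC median). At ZT07 they were at 0.41, 0.28 and -0.17, and at ZT11 at -0.32, 1.17 and 0.75. The ZT15 hearts stood at -0.30, -0.28 and -1.95, and the ZT19 hearts at 0.17, -1.44 and -1.31. The ZT23 hearts were all high, at 1.54, 1.62 and 0.96. Within a time, the highest and the lowest heart were therefore farthest apart at ZT03, by 2.02, and closest at ZT07, by 0.59. The SD within a time was 0.77 in TAC and 0.12 in SHAM (12 residual degrees of freedom each), and all 18 SHAM values lay between -0.37 and 0.32. A correlation with Myh7 in SHAM therefore rests on much smaller differences, measured by 1 probe set.

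**Figure D1:**
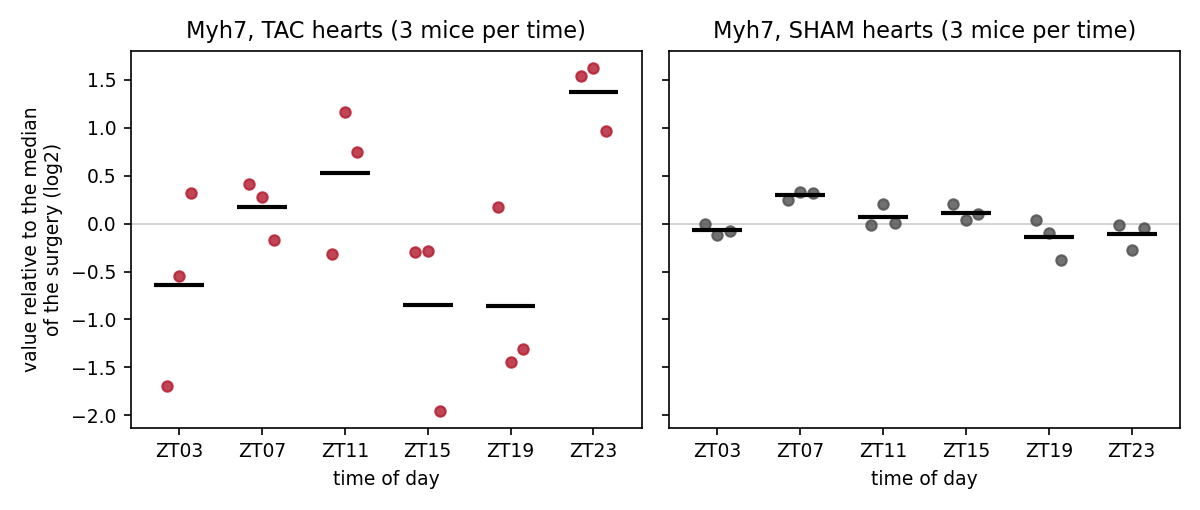
Myh7 value (log2, relative to the median of its surgery) of each array by time of day, TAC on the left and SHAM on the right; points are single mice and horizontal bars the mean of 3. TAC values run from -1.95 to 1.62, SHAM values from -0.37 to 0.32.

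4 arrays, 2 of them TAC, had a mean above 0.5 for airway and lung markers or for lymphocyte and thymocyte markers. The mean of 12 airway and lung markers was 1.57 in TAC ZT23 replicate 1, 1.23 in TAC ZT03 replicate 3 and 0.97 in SHAM ZT23 replicate 3, and the mean of 12 lymphocyte and thymocyte markers was 1.69 in SHAM ZT11 replicate 3. TAC ZT03 replicate 3 was also the heart with the most Myh7 at its time. Without these arrays the counts in TAC were 105 rising and 89 falling genes, and the members' median correlation was 0.836 for the rising and -0.829 for the falling genes, against 0.844 and -0.830 with all arrays. In SHAM the counts without them were 19 and 26. White adipocyte markers were not used to mark arrays. In TAC their mean ran from -0.53 in ZT23 replicate 2 to 1.25 in ZT11 replicate 3. It was 1.13 in TAC ZT15 replicate 3, the heart with the least Myh7. The array median and Myh7 had a correlation of -0.237 over the TAC arrays after removal of the time means.

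**Figure D2:**
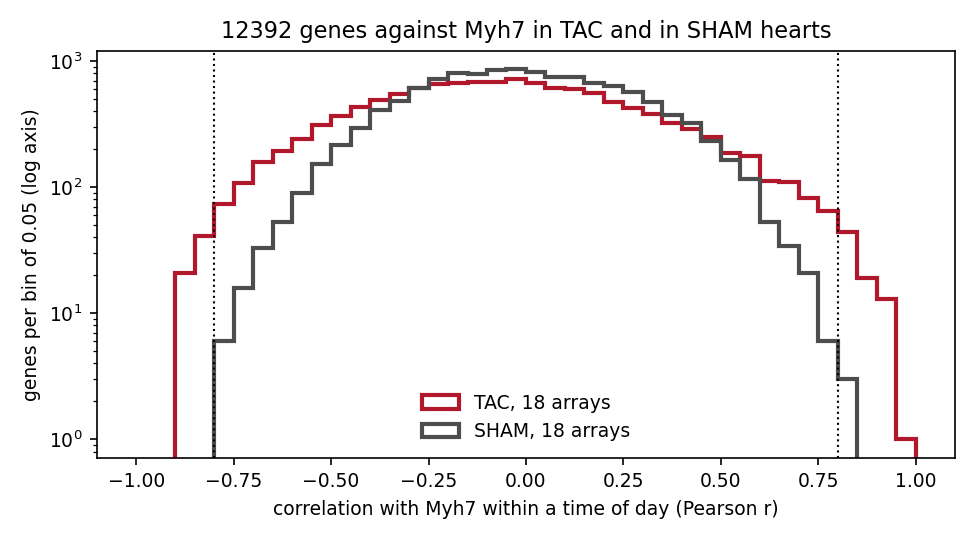
Number of genes (log axis) by their correlation with Myh7 within a time of day, in bins of 0.05, for TAC and SHAM; dotted lines mark 0.8 and -0.8. The TAC distribution reaches 0.951 and -0.891 and holds 139 genes beyond the lines, against 3 in SHAM.

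The threshold cut through a continuous range. Just inside it on the rising side were C1ra (0.807), Emp1 (0.806), Igfbp7, Pla1a (both 0.802) and Actn1 (0.801), and just outside were Col5a1 (0.799), Serf2, Sfrp1 (both 0.798), Fzd2 (0.797) and Cenpa (0.795). On the falling side Cyp4b1, Acadm (both -0.804), Mtg1 (-0.803), Mtm1 (-0.802) and Ano10 (-0.801) were inside, and Fam193b (-0.797), Hnrnpa2b1, Uqcrc2 (both -0.796), Tnfsf8 and Tmem94 (both -0.795) were outside. At a threshold of 0.7 there were 224 rising and 244 falling genes, and at 0.9 there were 14 and 0. Quantile normalization of the arrays left 28 rising genes, 22 of them members, and 7 falling genes, 5 of them members. All 139 members kept the sign of their correlation under it, with medians of 0.737 and -0.701.

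Ventricular stress genes of the fetal programme were among the rising genes. Ankrd1, a nuclear and sarcomeric repressor induced by stretch, and Nppb, the B-type natriuretic peptide, were 2 of them, and so were Pfkp and Hk1, early enzymes of glycolysis, and Actn1, the non-muscle alpha-actinin. Of the 20 measured genes of the list besides Myh7, these 5 were rising genes and 14 correlated above 0 (all genes: 5394 of 12392). The median of the list was 0.683 (all genes: -0.055). Because these genes and Myh7 are known to respond to load together, the RefSeq sequence of the 250 bases before the annotated start of Myh7, Ankrd1 and Nppb is shown here (build GRCm38.p6, 5' to 3' on the strand of the gene). Myh7 has 2 annotated windows in the table, and 1 of them is shown. Capitals mark the core of the M-CAT element, a site for TEAD factors, searched as CATTCC on both strands; in these windows it was found as its reverse complement.
Myh7, minus strand, chr14:54994627-54994876, with the core 201 to 196 bases before the start: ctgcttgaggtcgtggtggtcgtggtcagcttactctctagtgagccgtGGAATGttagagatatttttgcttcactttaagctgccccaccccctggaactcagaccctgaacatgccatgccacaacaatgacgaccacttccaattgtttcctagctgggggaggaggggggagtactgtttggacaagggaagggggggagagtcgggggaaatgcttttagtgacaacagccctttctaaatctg
Ankrd1, minus strand, chr19:36119845-36120094, with cores 210 to 205 and 123 to 118 bases before the start: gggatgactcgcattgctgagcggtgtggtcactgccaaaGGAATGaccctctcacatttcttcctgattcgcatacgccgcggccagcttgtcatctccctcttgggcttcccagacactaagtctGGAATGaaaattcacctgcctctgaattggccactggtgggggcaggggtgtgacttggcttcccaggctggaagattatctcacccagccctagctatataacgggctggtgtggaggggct
Nppb, plus strand, chr4:147985650-147985899, with the core 105 to 100 bases before the start: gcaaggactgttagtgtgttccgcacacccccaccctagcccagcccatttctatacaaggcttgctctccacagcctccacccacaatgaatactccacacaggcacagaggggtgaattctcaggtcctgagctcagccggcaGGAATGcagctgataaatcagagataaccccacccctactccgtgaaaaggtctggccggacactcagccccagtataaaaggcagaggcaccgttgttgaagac

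These 3 windows do not stand for the members as a whole. Of the rising genes, 59 matched 77 annotated windows, and 15 of these (19.5%) held CATTCC on either strand; of the falling genes, 46 matched 56 windows, and 10 (17.9%) held it. Of all 32851 windows, 12.6% did. The letters TATAAA were in 6.49% of rising, 5.36% of falling and 12.4% of all windows, and the AP-1 site TGANTCA in 5.19%, 8.93% and 6.75%. The nuclear receptor site AAGGTCA, searched after the members were known, was in 1 rising window (1.3%), 4 falling windows (7.14%) and 4.08% of all windows. A match in a window is a match of letters only.

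Ankrd1 had a correlation of 0.893, and a slope of 0.31 ± 0.04 (SE), in log2 units per log2 unit of Myh7 over the 18 TAC arrays. At ZT03 it was at -0.52, -0.14 and 0.15 and at ZT15 at -0.12, -0.09 and -0.82, so that its lowest hearts were also those with the least Myh7. Nppb had a correlation of 0.840 and a slope of 0.39 ± 0.07. It stood at -0.80, -0.12 and 0.48 at ZT03 and at 0.71, 0.50 and 0.62 at ZT23. In the ZT15 heart with the least Myh7, however, it was near the median of the TAC hearts.

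The rest of the fetal programme was uneven. Nppa (0.688), the atrial natriuretic peptide, Acta1 (0.690), Des (0.745), the desmin of intermediate filaments, Enah (0.733) and Ccn2 (0.763), a matricellular growth factor, lay above 0 but short of the threshold. Fhl1 (0.623), Rcan1 (0.582), a target of calcineurin, and Uchl1 (0.677) lay lower. Myh6, the adult myosin that Myh7 replaces, had a correlation of -0.391. Tnnt1 (-0.701), Acot2 (-0.691), Myl7 (-0.393), Myl4 (-0.320) and Tuba8 (-0.100) were below 0, and Tnni1 was at 0.055. Of the 20 genes of the adult sarcomere, 10 were above and 10 below 0, and none was a member, the nearest being titin, Ttn (-0.751), the light chain Myl3 (-0.721) and troponin I, Tnni3 (-0.702).

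Matrix genes formed the largest group among the rising genes. 16 encode matrix proteins or proteoglycans, with correlations from 0.816 to 0.934. They were Postn, Bgn, Prelp, Comp, Mfap5, Fbln2, Col8a1, Sparc, Dcn, Fmod, Col6a1, Mgp, Thbs4, Svep1, Srpx2 and Itih5. All 28 measured genes of the interstitial matrix list correlated above 0 (all genes: 5394 of 12392), with a median of 0.708, and 9 were rising genes. The same share of all genes is the background for the counts above 0 in the lists that follow. The fibrillar collagens Col1a1, Col1a2 and Col3a1 fell short of the threshold, at 0.715, 0.774 and 0.676.

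Postn, periostin, a secreted protein of activated fibroblasts, had the steepest slope of all members, 0.95 ± 0.09 (SE) per log2 unit of Myh7, and a correlation of 0.934. It stood at -1.44, -0.71 and 0.83 in the ZT03 hearts and at 0.10, 0.56 and -0.10 at ZT07. The ZT11 hearts were at -0.29, 1.44 and 1.41, and those at ZT15 at -0.12, -0.24 and -1.53. At ZT19 it was at 0.45, -0.80 and -0.99, and at ZT23 at 1.44, 1.25 and 1.18. At ZT03, ZT11 and ZT19 the heart highest in Myh7 was also the highest in Postn, and at ZT07, ZT15 and ZT23 another heart was. In SHAM the correlation was 0.161.

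Bgn, the small proteoglycan biglycan, ran from -0.67 to 0.62, with a correlation of 0.924 and a slope of 0.43 ± 0.05. Comp, cartilage oligomeric matrix protein, was near -0.6 in the lowest hearts of ZT03, ZT15 and ZT19 (-0.63, -0.59 and -0.56) and at 1.59, 1.33 and 0.80 at ZT23. Its slope was 0.62 ± 0.08. Thbs4, thrombospondin 4, spanned -1.14 to 1.5 with a slope of 0.65 ± 0.12. Of the activated fibroblast list, Postn, Comp, Thbs4, Ltbp2 and Fstl1 were 5 rising genes of 15 measured, and 13 were above 0 (median 0.536). Genes that mature collagen had a median of 0.461, and all 16 were above 0 without a member; Loxl1 (0.786), a lysyl oxidase, Pcolce (0.685) and Bmp1 (0.591), which process procollagen, came nearest. Basement membrane genes lay lower, with a median of 0.170 over 16 and Col4a2 (0.784), Col4a1 (0.709) and Nid1 (0.618) highest. Mmp2, a gelatinase, Timp2, its inhibitor, Adamts10 and P3h3, a prolyl hydroxylase family member, completed the matrix genes, from 0.844 to 0.883.

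**Figure D3:**
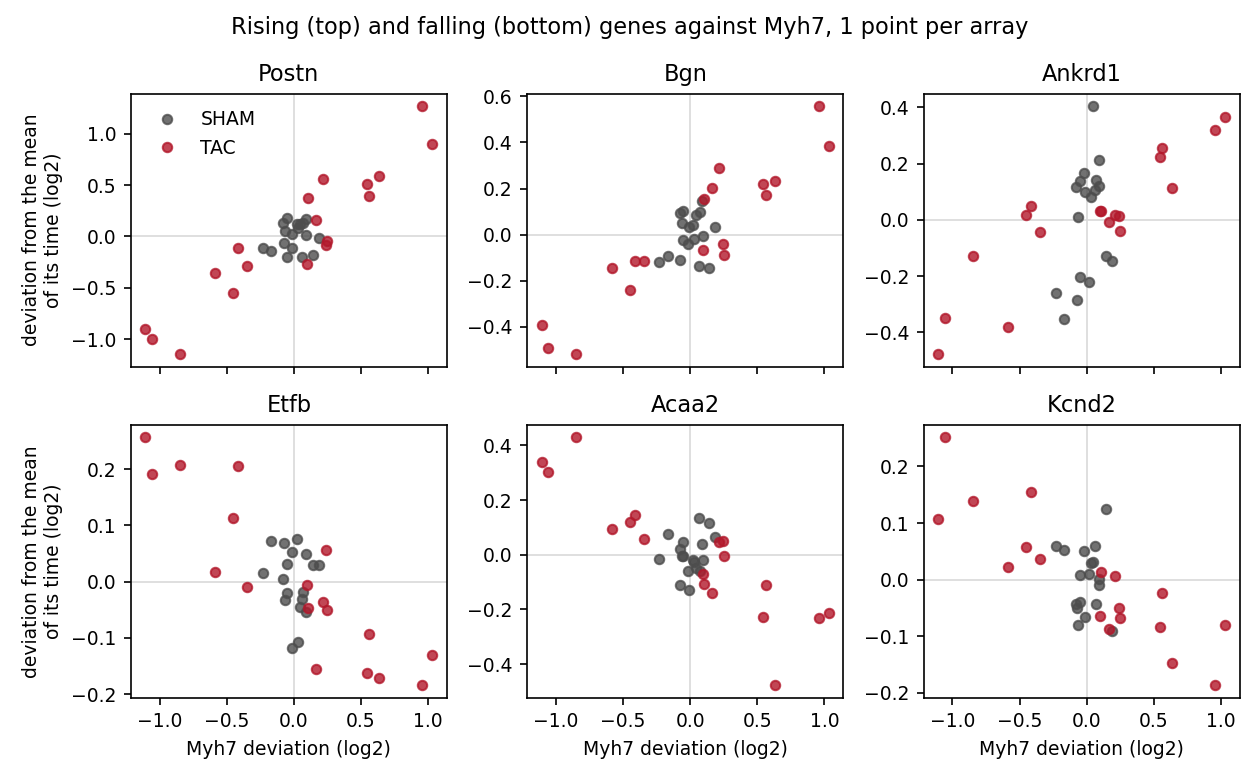
Deviation of 6 members from the mean of their time (log2) against that of Myh7, 1 point per array, TAC red and SHAM grey; the upper row shows rising and the lower row falling genes. In TAC the points follow a slope, from 0.95 for Postn and 0.31 for Ankrd1 to -0.20 for Etfb; the SHAM points stay within 0.23 of 0 on the Myh7 axis.

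The TGF-beta pathway contributed a ligand, a receptor and binding proteins. Tgfb2 encodes a ligand and had a correlation of 0.908, with values from -0.44 in the ZT15 heart lowest in Myh7 to 0.36 at ZT23. Tgfbr2 (0.811) is the type II receptor. Ltbp2 (0.854) and Ltbp4 (0.815) belong to the family of latent TGF-beta binding proteins of the matrix. Pmepa1 (0.922) is known as a target that dampens the pathway. Over the 30 genes of the TGF-beta and BMP list, 4 were rising genes, 25 were above 0 and the median was 0.326.

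A further 14 rising genes encode other secreted proteins. They were Fstl1, Mif, a cytokine, Frzb, an inhibitor of Wnt, Ccn5, Serpinf1, Sema3f, C1ra of the complement system, Igfbp7, Pla1a, Oaf, Fibin, Islr, Itgbl1 and Nppb. Islr (0.912) and Itgbl1 (0.912) were the highest of them. The 10 membrane proteins were led by Fxyd6, a regulator of the sodium pump, which had the highest correlation of any gene, 0.951. Fxyd6 ran from -0.90 in the ZT19 heart with the least Myh7 to 0.69 in the ZT23 heart with the most, with a slope of 0.50 ± 0.04. The others were Lpar1, Axl, Antxr1, Itgb5, Gpm6b, Emp1, Mxra8, Pgrmc2 and Atp8a2.

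10 members belong to the cytoskeleton and its links to the membrane: Msn, Pdlim2, Capg, Cttn, Tln1, Synpo, Wdr1, Actn1, Dpysl3 and Dync1li1. Their correlations ran from 0.801 to 0.864. Of the 36 genes of the actin and integrin list, 34 were above 0 (median 0.529), and 3 were rising genes: Tln1 (0.826), talin, Capg (0.844), a capping protein, and Itgb5 (0.813), an integrin subunit. Signalling and transcription supplied 11. Prkar1a (0.909), a regulatory subunit of protein kinase A, Arrb1 (0.904), an arrestin, Grk5 (0.867), a kinase of G protein-coupled receptors, and Adcy7 (0.838), an adenylyl cyclase, act at or below the beta-adrenergic receptor. The list of beta-adrenergic and cAMP signalling as a whole had a median of -0.084, with 9 of 19 above 0, and Corin (-0.794), the protease that activates natriuretic peptides, at its other end. Etv5 (0.910), an ETS factor, Wwtr1 (0.811), the Hippo effector TAZ, Ankrd1, Prkcd, Arf5, Kctd10 and Carhsp1 (0.921) were the others.

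Glycolysis split. Pfkp (0.926), phosphofructokinase of the platelet type, and Hk1 (0.846), hexokinase 1, were rising genes. Pfkp stood at -0.65, -0.28 and 0.12 at ZT03 and at 0.60, 0.64 and 0.56 at ZT23, with a slope of 0.30 ± 0.04. Eno3 (-0.681), the muscle enolase, was the lowest of the list, whose median over 20 genes was -0.105. Cyb5r3, Abhd15, Eef1a1, Anxa4 and Palm made up the remaining rising genes.

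The falling genes were led by fatty acid oxidation. 9 members belong to it: Etfb, Etfa, Acaa2, Hadh, Ech1, Acadm, Eci2, Ppargc1b and Scp2, with correlations from -0.891 to -0.804. Etfa and Etfb form the flavoprotein that passes electrons from acyl-CoA dehydrogenases such as Acadm to the respiratory chain, and Hadh and Acaa2 carry out the last steps of the cycle. Of the 32 genes of the list 31 were below 0 (all genes: 6998 of 12392), with a median of -0.677, and 7 were falling genes. This share of all genes is also the background for the counts below 0 in the lists that follow.

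Etfb had the lowest correlation of any gene, -0.891, and a slope of -0.20 ± 0.03 (SE). It was at 0.19, -0.01 and -0.18 at ZT03, where Myh7 ran from its lowest to its highest heart. At ZT11 it was at 0.01, -0.37 and -0.24 and at ZT15 at 0.07, 0.14 and 0.49. Acaa2 had a steeper slope, -0.31 ± 0.05, with -0.77 in the ZT11 heart highest in Myh7 and 0.53 in the ZT15 heart lowest in it. These changes per unit of Myh7 were smaller than those of the matrix genes: the median slope was 0.38 over the 16 matrix proteins and -0.16 over the 9 genes of fatty acid oxidation.

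10 more falling genes belong to the respiratory chain, the citric acid cycle or the exchange across the mitochondrial membranes. They were Cox5b (-0.884), Ndufa12, Ndufa13, Ndufb9 (-0.830), Sdha (-0.822), Sdhd, Atp5g1, Idh3a (-0.822), the adenine nucleotide carrier Slc25a4 and the channel Vdac1. Their slopes were shallow, from -0.16 to -0.06. All 47 measured genes of the oxidative phosphorylation list were below 0, with a median of -0.640, and 5 were falling genes. In the citric acid cycle list 22 of 23 were below 0 (median -0.524), and 2 were falling genes, Idh3a and Sdha; Mdh2 (-0.742) came next. Branched-chain amino acid and ketone catabolism had a median of -0.643 over 19 genes, with Mmut (-0.858) and Aldh6a1 (-0.808) as falling genes and Bckdhb (-0.761) after them.

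Gpt (-0.882), alanine aminotransferase, Adi1, Adhfe1 (-0.872), Fbp2, the muscle fructose bisphosphatase, Dglucy, Retsat, Ces1d and Cyp4b1 also belong to metabolism. Ces1d, a carboxylesterase, had the steepest falling slope, -0.57 ± 0.11, and ran from 1.60 in the ZT15 heart with the least Myh7 to -1.17 in the ZT11 heart with the most. Sod2, the mitochondrial superoxide dismutase, Gstk1, Gstm7 and Mgst3 handle oxidants or conjugate them, and Mpv17, Mrpl42, Mtg1, Aifm1 and Qrsl1 are other mitochondrial genes.

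6 falling genes belong to membranes and junctions. Kcnd2 (-0.878) encodes a channel of the transient outward potassium current, and Trdn (-0.864), triadin, anchors the calcium release complex. Trdn was at 0.12, -0.03 and -0.17 at ZT03 and at -0.10, -0.02 and 0.45 at ZT15. Dsg2 is a desmosomal cadherin, and Ptprm, Neo1 and Ano10 were the others. Atp2a2 (-0.778), the calcium pump of the sarcoplasmic reticulum, and Hrc (-0.740) came close, but the calcium list as a whole had 7 of 19 genes above 0. Kcnd3 (-0.646) and Kcnq1 (-0.632) were the next channel genes, in a list with a median of -0.187. The nucleus and RNA group held Bcl9 (-0.866), a cofactor of beta-catenin, Msl2, Ybx1, Rbbp6, Rbm26, Naf1, Mlxip and Zscan26. Pla2g5 (-0.888), a secreted phospholipase, Abl1, Il15, Hhatl, Ttll1, Tmprss15, Mtm1, Ndst3, Ogfod3 and the clone-named A530016L24Rik were the remaining 10.

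Several other lists had medians near that of all genes and no members. Core clock genes had a median of -0.086 over 18, with Usp2 (-0.681), Hlf (-0.617) and Per3 (-0.599) lowest. Heat shock chaperones (-0.065; Hspd1 at -0.564, Dnaja4 at 0.557 and Hspa8 at -0.524), the unfolded protein response (-0.078; Hspa5 at -0.695, Atf4 at 0.620 and Dnajb9 at -0.587), proteasome subunits (-0.160; Psmd8 at 0.677, Psmb7 at -0.532 and Psmb6 at -0.458) and ribosomal proteins (0.156; Mrpl23, a mitochondrial one, at -0.540, Rpl6 at 0.507 and Rps3 at 0.436) were of this kind.

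**Figure D4:**
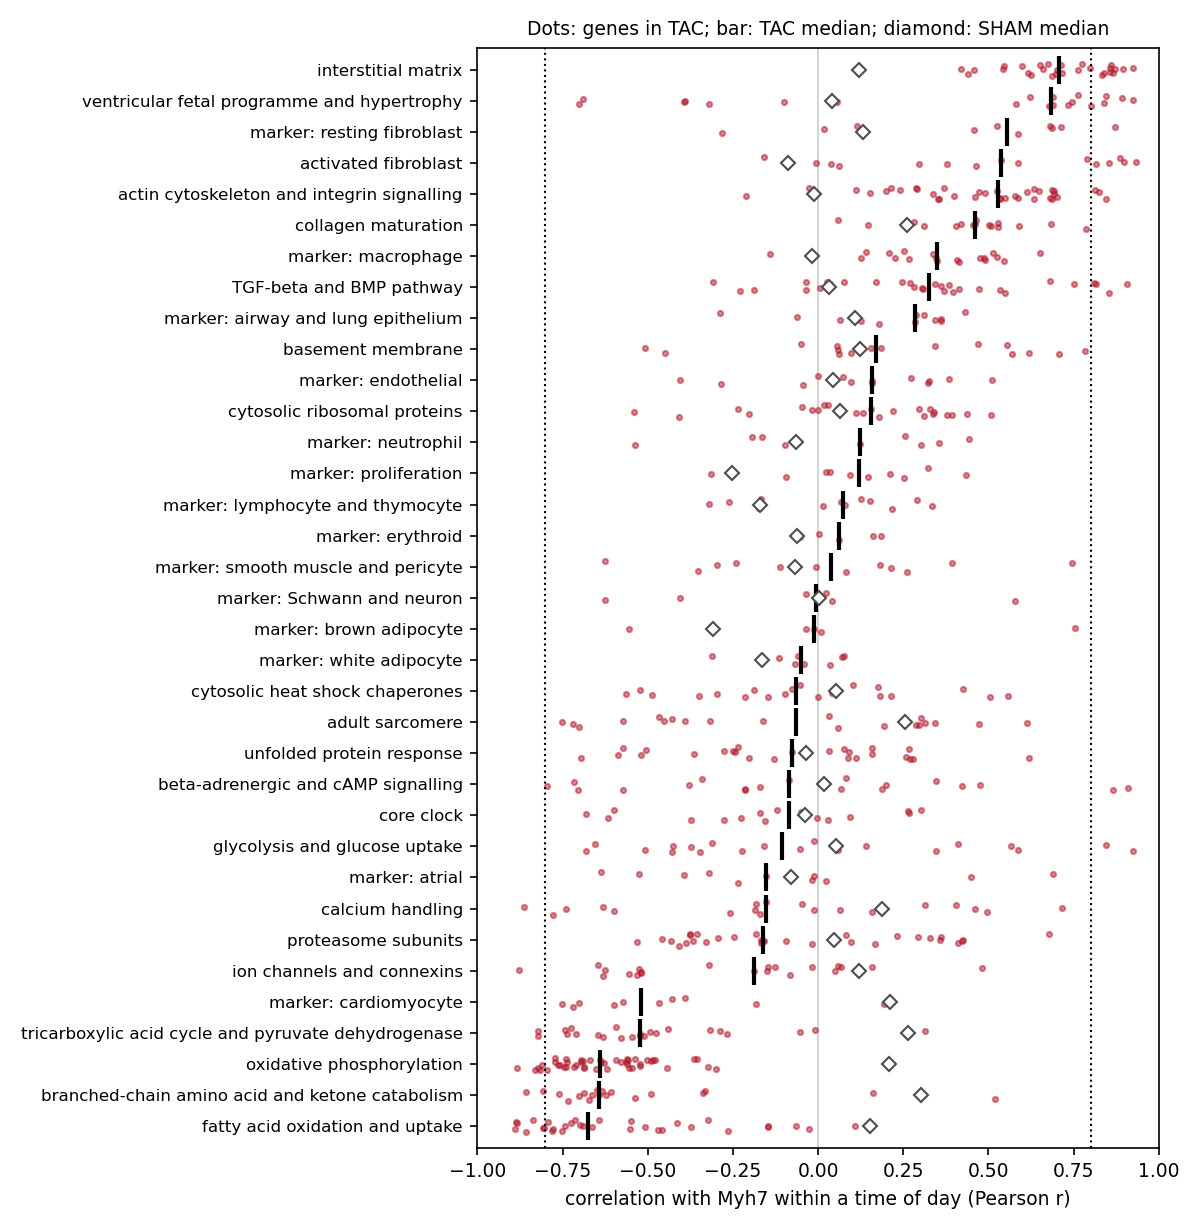
Correlation with Myh7 within a time of day for each measured gene of 35 gene lists; dots are genes in TAC, black bars their median, open diamonds the median of the same genes in SHAM, dotted lines 0.8 and -0.8. Matrix and fetal programme genes lie to the right and the 4 mitochondrial lists to the left in TAC, with medians from 0.708 to -0.677, while the SHAM medians of all lists lie between -0.307 and 0.301.

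Markers of some cell types moved with Myh7 as well. In these whole-tissue samples fewer cells of a type and less RNA per cell cannot be told apart. Of all 12392 genes, 5394 were above 0 and 6998 below 0 in TAC. Of 10 cardiomyocyte markers 9 were below 0 in TAC (median -0.520), of 10 resting fibroblast markers 9 were above 0 (median 0.555; Mfap5, Pdgfra at 0.714 and Col14a1 at 0.685 highest), and of 19 macrophage markers 18 were above 0 (median 0.348; C1qc at 0.651 highest). Endothelial (0.158), smooth muscle and pericyte (0.038), atrial (-0.153) and white adipocyte markers (-0.050) lay nearer to 0, and Bpifa1, the most variable airway marker, was at 0.362. Unlike the 10 cardiomyocyte markers, the adult sarcomere list was split, with 10 of 20 genes above 0 and a median of -0.066. The mean of the cardiomyocyte markers spanned only -0.17 to 0.12 over the TAC arrays, that of the resting fibroblast markers -0.29 to 0.29, and that of the interstitial matrix list -0.50 to 0.52. With the cardiomyocyte mean held constant, a calculation added after the first results, the members' median correlations were 0.805 and -0.774, and 127 and 58 genes passed the threshold. With the mean of the interstitial matrix list held constant, the medians were 0.472 and -0.561, and 8 rising and 11 falling genes remained past the threshold. Members among these were Fxyd6 (0.831), Postn (0.812), Bgn (0.835) and Gpt (-0.810). All 139 members kept their sign. The matrix list itself holds 9 rising genes, Bgn among them, and its mean had a correlation of 0.844 with Myh7 in TAC. Lower values with it held constant are therefore favoured. Holding the atrial and white adipocyte means constant gave 160 and 97 genes.

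The members were also correlated with each other, which their choice by correlation with Myh7 favours. The median correlation between pairs of rising genes was 0.789 over 2926 pairs in TAC, that between pairs of falling genes 0.776 over 1891, and that between a rising and a falling gene -0.730. In SHAM these medians were 0.237, 0.202 and -0.134. The choice of members favours high values in TAC but not in SHAM, so the difference between surgeries was not tested. The members also varied more within a time in TAC than in SHAM: the SD was higher in TAC for 74 of 77 rising and 57 of 62 falling genes, against 71.9% of all genes. This SD comes from the values that chose the members, and the choice favours a larger spread in TAC. Nothing is read from the difference from all genes.

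The members' relation to Myh7 is described here time by time, on the same values that chose them. Between the hearts with the most and the least Myh7, the rising genes were higher in 77 of 77 cases at ZT03, ZT15 and ZT19 and in 76 at ZT11, but in 57 at ZT07 and 53 at ZT23, where Myh7 differed by only 0.59 and 0.66. The falling genes were lower in 62 of 62 cases at ZT03 and ZT15, in 61 at ZT19, 60 at ZT11, 50 at ZT23 and 36 at ZT07. Of the rising genes 40 were higher at all 6 times (all genes: 1.66%), and of the falling genes 29 at 0 of 6 times (all genes: 2.15%). The rule favours such counts, and nothing is read from the difference from all genes. Leaving out the 2 hearts farthest from the median of Myh7, TAC ZT15 replicate 3 and TAC ZT03 replicate 1, gave 54 rising and 27 falling genes, and the members' medians became 0.799 and -0.744. The count of falling genes rested most on single hearts: it was 35 without TAC ZT15 replicate 3, 118 without TAC ZT19 replicate 1, 115 without TAC ZT19 replicate 3 and 102 without TAC ZT11 replicate 2. The count of rising genes was between 58 and 108 with any 1 array left out.

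The SHAM arrays did not choose the members and asked whether the same genes follow Myh7 without constriction. The rising genes had a median correlation of 0.200 in SHAM, with 55 of 77 above 0 (all genes: 48.3%), and the falling genes a median of 0.108, with 25 of 62 below 0 (all genes: 51.7%). The count of 55 was 33 and that of 25 was 15 without SHAM ZT19 replicate 3, the SHAM heart with the least Myh7. Tested by limma as a slope on Myh7 with time of day in the model, 0 of 12392 genes passed at an adjusted p under 0.05, members included (lowest adjusted p 0.999). At an unadjusted p under 0.05, 6 rising genes had a positive slope, against 1.8% of all genes. They were Itgbl1, Pla1a, Palm, Nppb, Fxyd6 and Mxra8. Of the falling genes 1 had a negative slope, against 1.4% of all genes, and 1 a positive slope. Itgbl1, the highest of the members in SHAM, had a correlation of 0.70 and a slope of 0.52 ± 0.16 (SE; limma, adjusted p = 0.999). Bcl9, the lowest, had -0.783 and a slope of -0.53 ± 0.14 (limma, adjusted p = 0.999). Pla2g5, at -0.888 in TAC, was at 0.523 in SHAM.

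In SHAM some gene lists had a median on the other side of 0 than in TAC, and others did not. Of all genes 48.3% were above 0 in SHAM. Oxidative phosphorylation, with all 47 genes below 0 in TAC, had 37 of 47 above 0 and a median of 0.208. Fatty acid oxidation had a median of 0.152. Interstitial matrix stayed above 0, with a median of 0.120 and 20 of 28 genes above 0, and so did collagen maturation (0.262, 13 of 16). Across the 12392 genes the TAC and SHAM correlations were themselves correlated at 0.0446, where genes are not independent replicates. The 3 genes past 0.8 in SHAM were Dab2ip (0.834), Cox19 (0.821) and Ndufaf7 (0.819); in TAC they were at -0.346, 0.639 and -0.149. Whether the slopes of TAC and SHAM differ was not tested.

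Differences between times of day were subtracted by the rule, but they are not free of the choice of members. Each time mean is made of the same 3 hearts, so genes that follow Myh7 from heart to heart are favoured to follow it in the means. Over the means of the 6 times in TAC, nearly all members correlated with Myh7 in their own direction, but the order of the times was not the same. Myh7 was lowest at ZT19 and highest at ZT23. The mean of the rising genes was lowest at ZT15, and that of the falling genes was highest at ZT15 and lowest at ZT11. The counts are a description, and nothing is read from their difference from all genes. Over the 6 TAC time means, 76 of 77 rising genes correlated above 0 with Myh7 (all genes: 37.5%) and 61 of 62 falling genes below 0 (all genes: 62.5%). The exceptions were Adamts10 (-0.247) and Naf1 (0.567). The mean of the rising genes was 0.33 ± 0.09 (SD, n = 3) at ZT23 and 0.15 ± 0.26 at ZT11, but -0.18 ± 0.23 at ZT15 and -0.11 ± 0.24 at ZT19. Myh7 was at 1.38 ± 0.36 and 0.53 ± 0.77, and at -0.84 ± 0.96 and -0.86 ± 0.90. The mean of the falling genes was -0.09 ± 0.06 at ZT23 and -0.10 ± 0.19 at ZT11, and 0.13 ± 0.20 and 0.09 ± 0.09 at ZT15 and ZT19. In the mean of the rising genes the ZT23 hearts lay above all hearts of the other times except those of ZT11, with which they overlapped.

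**Figure D5:**
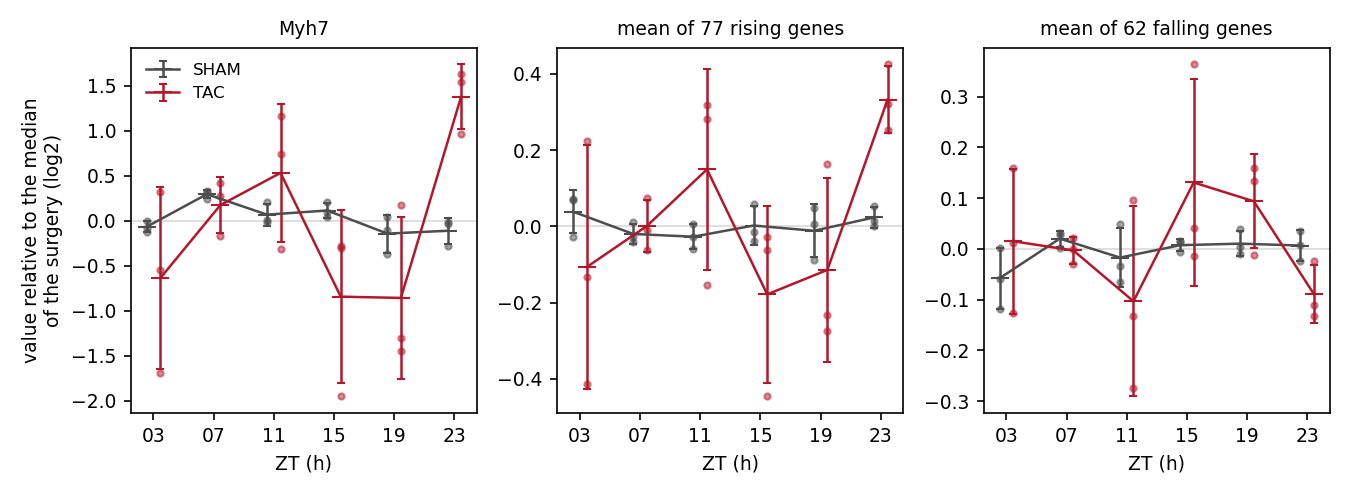
Value (log2, relative to the median of the surgery) of Myh7 and of the mean of the 77 rising and the 62 falling genes by time of day; points are arrays, lines join the means of 3 arrays and bars are SD. In TAC, Myh7 and the rising genes are highest at ZT23 (1.38 and 0.33), and the falling genes are below 0 at ZT11 and ZT23; the SHAM means of both sets of members stay within 0.06 of 0.

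Over the 6 times, limma found 68 genes (0.549%) that changed in TAC at an adjusted p under 0.05, and none was a member (lowest adjusted p 0.085, Prkar1a; Myh7 0.154). At an unadjusted p under 0.05 there were 36 of 77 rising and 16 of 62 falling genes, against 12.4% of all genes. Because the members follow Myh7 and each other in these hearts, they are not independent counts. The count of called members depended on the estimate of the spread. With all 36 arrays in the fit, 652 genes were called, with 30 rising and 10 falling genes among them. That fit shares 1 spread with the SHAM hearts, in which most members varied less. Weights for array quality, whose estimation stopped before it converged, gave 5453 genes, with 66 rising and 43 falling genes. Without TAC ZT11 replicate 1, the counts were 128 genes, 7 rising and 1 falling.

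ZT23 and ZT19 were the times at which the mean of Myh7 was farthest apart, by 2.23 (limma, adjusted p = 0.183). This pair was chosen because that was known from earlier results of these data. Since the members follow Myh7 and each other among these same hearts, counts in its direction are favoured and not independent. Nothing is read from their difference from all genes. Of the rising genes 74 of 77 were above 0 in ZT23 minus ZT19, with a median of 0.36 (43.3% of all genes above 0), and of the falling genes 57 of 62 were below 0, with a median of -0.14 (56.7% of all genes below 0). No member passed at an adjusted p under 0.05, where limma called 3 genes higher (0.0242%) and 4 lower (0.0323%). At an unadjusted p under 0.05, 46 rising genes were higher (3.97% of all genes) and 17 falling genes lower (4.32%). Without TAC ZT19 replicate 2 these were 29 and 5, without TAC ZT19 replicate 3 they were 30 and 7, and without TAC ZT23 replicate 1 or 2 the falling genes numbered 6 or 10. With all 36 arrays in the fit, and the spread again shared with the SHAM hearts, 17 rising genes and 1 falling gene passed.

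The members with the smallest p in this contrast were Prkar1a, Capg, Thbs4, Ltbp2 and Wdr1 among the rising genes. Prkar1a stood at 0.52, 0.51 and 0.46 at ZT23 and at 0.00, -0.13 and -0.25 at ZT19, a difference of 0.62 (limma, adjusted p = 0.131), and the groups did not overlap. Thbs4 stood at 1.16, 0.99 and 1.5 against 0.29, -1.04 and -1.14, a difference of 1.85 (limma, adjusted p = 0.165). Ltbp2 differed by 1.61 (limma, adjusted p = 0.183) and Postn by 1.74 (limma, adjusted p = 0.367). Among the falling genes the smallest p belonged to Cyp4b1, Dglucy, Hhatl, Ano10 and Retsat. Cyp4b1, a cytochrome P450, differed by -0.35 (limma, adjusted p = 0.268). In SHAM the median of ZT23 minus ZT19 was 0.03 for the rising and 0.00 for the falling genes. The difference between TAC and SHAM in this contrast, tested as an added interaction over all 36 arrays, passed for 1 gene (0.00807%) and for no member (limma, lowest adjusted p 0.362). At an unadjusted p under 0.05 the difference was found for 35 rising and 12 falling genes, against 5.18% of all genes. This fit took 1 spread for both surgeries, although most members varied more within a time in TAC. The choice of the pair of times also favours such counts, so nothing is read from them.

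Markers of atrial muscle moved in the same contrast. Of 11 measured, 9 were below 0 (56.7% of all genes below 0) and 4 were called lower by limma, including Myl7 (-2.87, adjusted p = 0.00878). These 4 were all the genes that limma called lower in this contrast (0.0323% of all genes). The mean of all 11 atrial markers was -0.26, -0.69 and -0.69 in the ZT23 hearts and 0.44, 0.24 and -0.02 in the ZT19 hearts. The part of tissue sampling in the members' difference between ZT23 and ZT19 was not tested.

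Some genes were measured by several probe sets. Of the rising genes 40 had several, and 104 of their 106 probe sets correlated with Myh7 in the gene's direction in TAC. Of the falling genes 30 had several, and 91 of 94 probe sets did. The mean of these probe sets chose the members, which favours a shared sign, and they share the RNA and the array, so the counts are a description and no check. All probe sets of a gene were past 0.8 in its direction for only 12 of the 40 rising and 2 of the 30 falling genes. Vdac1 had probe sets at 0.182 and 0.214, Kcnd2 at 0.029, and Cox5b at -0.157 and -0.050. Among rising genes, Tgfbr2 had a probe set at -0.065 and Dpysl3 at -0.040.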

How the data were processed

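The deposited table holds values of the authors on a log scale, taken as log2, for 22690 probe sets on 36 arrays. How the authors summarised and normalized the probes, and to which log base, was not given in the sources used here. Per the labels' protocols, labelled cRNA was made from 6 ug of total RNA. Of the probe sets, 20380 had 1 gene symbol in the platform annotation (691 had several, 1606 were not listed, 13 were controls), and their means gave 12393 genes. The number of arrays limits the precision, as scanner intensities were not used here. Correlations and slopes were computed with numpy 2.4.6 and pandas 2.3.3 (Python 3.11.15) after subtraction of the mean of each time.

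Tests used limma 3.58.1 in R 4.3.3 (lmFit and eBayes, Benjamini-Hochberg over all genes, threshold 0.05). The TAC arrays alone gave an F-test over 6 times and the contrast of ZT23 with ZT19, and the SHAM arrays a slope on Myh7 with time as levels. The code was tested on simulated data. The members, the gene lists and the threshold were chosen with earlier results of these data known. Genes were named by a rule: the 15 highest and 15 lowest correlations, up to 3 genes per list, all fetal programme genes, the 5 genes on each side of the threshold, and the 5 members with the smallest p per test. Other members are named to account for all 139, and their grouping by role was made after their values were seen. Replicate numbers were not used to pair samples: same-numbered arrays of different times had a mean correlation of -0.012 in TAC and 0.1 in SHAM, and not every pair was above 0.1.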

Additional observations from a re-analysis of the deposited data

How the results depend on the processing

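The correlations rest on 18 arrays with 12 residual degrees of freedom, and both the counts past a threshold and the values moved. The 32 rising and 24 falling members that the rule named by correlation, list or threshold kept their sign under every alternative run. Fxyd6 stayed at 0.831 or above and Gpt at -0.804 or below. Igfbp7, however, went from 0.802 to as low as 0.006, and Cox5b from -0.884 to as weak as -0.157, which is the correlation of 1 of its probe sets. At 0.7 there were 224 rising and 244 falling genes in TAC (30 and 22 in SHAM), and at 0.9 there were 14 and 0 (0 rising in SHAM). Quantile normalization gave 28 and 7 (7 falling in SHAM). Holding constant the matrix mean gave 8 and 11 (SHAM 8 and 7), the atrial and white adipocyte means 160 and 97 (SHAM 6 and 8), and the cardiomyocyte mean 127 rising (SHAM 5 and 1). Without the 2 arrays farthest in Myh7 there were 27 falling genes (SHAM 6 and 6), and without arrays with lymphocyte or airway transcripts 19 and 26 in SHAM. In SHAM, 1 rising gene passed among genes with an SD above the median, and 4 falling genes passed with arrays centred on their medians and 1 with the probe set of largest SD.

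Replicate numbers were not taken to pair the samples, since not every same-numbered pair correlated above 0.1. In TAC, arrays of different times with the same number had a mean correlation of -0.012, with 8 of 45 pairs above 0.1, against 0.007 and 26 of 90 for different numbers. In SHAM these were 0.1 and 22 of 45 against -0.05 and 11 of 90, so same-numbered SHAM arrays were more alike. With the replicate number as a block there were 128 rising and 103 falling genes in TAC, 11 and 5 in SHAM, and 1 gene called higher at ZT23 than at ZT19.

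Leaving out 1 array gave 58 to 108 rising and 35 to 118 falling genes in TAC, and 2 to 12 and 0 to 10 in SHAM. Leaving out 1 time gave 69 to 146 and 48 to 168 in TAC, and 6 to 20 and 5 to 11 in SHAM. Leaving out 1 replicate number gave 185 to 312 and 194 to 470 in TAC, and 130 to 166 and 68 to 255 in SHAM, with fewer degrees of freedom.

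For the change over 6 times (68 genes), quantile normalization gave 110 genes, array weights 5453 with 66 rising and 43 falling members, and all 36 arrays 652 with 30 and 10. Leaving out 1 array gave 29 to 128 genes, with 0 to 7 rising and 0 to 1 falling members, and leaving out 1 replicate number 1 to 36 genes, with 0 to 3 rising members. For ZT23 minus ZT19 (3 genes higher, 4 lower), quantile normalization gave 0 and 1, centring on array medians 6 higher, the probe set of largest SD 6 higher, array weights 108 and 127 with 22 rising and 8 falling members, all 36 arrays 78 and 34 with 17 and 1, and omission of arrays with lymphocyte or airway transcripts 1 higher. Leaving out 1 array gave 0 to 5 in each direction, and leaving out 1 replicate number 0 to 6 higher and 0 to 5 lower, with 0 to 3 rising members. At an unadjusted p under 0.05 the rising members numbered 14 to 62 over these omissions and the falling members 2 to 21, with 34 falling members under array weights and 10 without arrays with lymphocyte or airway transcripts. In SHAM 29 to 61 rising members had a slope above 0 and 15 to 34 falling members one below 0 over the omissions. The cause of these shifts was not tested.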
